A study of Mus musculus with 3 samples.

Results

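Dividing cells of the mouse cochlea at postnatal day 7 (P7) were examined cell by cell. They were chosen from raw UMI counts, in which each unique molecular identifier (UMI) stands for 1 captured RNA molecule. Barcodes with at least 500 detected genes and at most 20% of their UMIs in mitochondrial genes were kept as quality cells. A quality cell was counted as dividing when Mki67, Top2a, Cenpf and Birc5 together gave at least 3 UMIs and at least 2 of these 4 genes were detected. The rule held for 155 of 7262 quality cells at P7, which is 2.13% (exact 95% binomial interval 1.81 to 2.49%, covering counting error only). Another 6638 cells had no UMI of any of the 4 genes and served as reference cells. The remaining 469 cells had too few of these UMIs for the rule, or UMIs of 1 gene only, and were placed in neither set.

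The series profiled cochleae, the spiral hearing organ of the inner ear, from wildtype C57BL/6J mice at embryonic day 15 (E15, 2 libraries) and at P7 (1 library). Tissue was taken apart with papain and thermolysin, sorted by flow cytometry to remove debris, and captured as all cochlear cells on the 10x Genomics droplet platform with the 3' v3 chemistry. The labels give no number of animals or litters per library, so the spread between the E15 libraries may be technical, and with a single P7 library no P7 value has a replicate. P7 values are therefore given as a description with counting intervals, and none carries a test.

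The P7 library held 93829443 UMIs in 8141 barcodes, and the E15 libraries 46530036 and 44304364 UMIs. Pairs of libraries shared 3 to 6 barcode sequences. Dividing P7 cells were deeper than reference cells, with a median of 14695 against 10976.5 UMIs and 4006 against 3356.5 genes, and their median mitochondrial share was 4.67% against 4.31%. Their totals ran from 744 to 119481 UMIs. Because the rule counts UMIs, it was also applied after each cell with at least 3000 UMIs had been thinned at random to 3000. The thinned rule found 99 of 6605 cells (1.5%, interval 1.22 to 1.82%). All 99 were among the 155, as must be the case because thinning only removes UMIs. Of the 155, 14 were too shallow for thinning.

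Cells that divide copy their DNA in S phase with replication helicases, polymerases and nucleotide-making enzymes, then condense and separate the chromosomes in mitosis with cyclin-dependent kinases, spindle motors and kinetochore proteins. Most of the transcripts for these proteins are made only while a cell is cycling, and many of the mitotic ones are held down in resting cells by repressor complexes at their promoters. In the cochlea the sensory hair cells, their supporting cells and the spiral ganglion neurons leave the cycle before birth in the mouse, whereas glia, blood vessels, connective tissue and immune cells can go on dividing after it.

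The 4 genes of the rule chose the cells, so their levels are a description. Mki67 (ENSMUSG00000031004), which encodes the Ki-67 protein that coats mitotic chromosomes, was detected in 141 of the 155 cells with 934 UMIs. Top2a (ENSMUSG00000020914), the topoisomerase that untangles sister chromatids, was detected in 135 with 1750 UMIs. Cenpf (ENSMUSG00000026605), a kinetochore protein, was detected in 120 with 1016 UMIs. Birc5 (ENSMUSG00000017716), survivin of the chromosomal passenger complex, was detected in 139 with 1344 UMIs. All 4 genes were seen in 92 cells, 3 of them in 41 and 2 of them in 22. Most cells lay far from the threshold. The median sum was 20 UMIs and the highest 215, and 140 cells had at least 5. Just inside the threshold were 10 cells with 3 UMIs and 5 with 4. Just outside it were 385 cells with 1 UMI, 61 with 2 UMIs, of which 19 had 2 genes, and 23 with 3 or more UMIs of 1 gene, which was Cenpf in 13, Top2a in 6 and Mki67 in 4.

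Promoter sequence is shown for 3 of the rule's genes and for Cdk1 and Ccnb2, the catalytic subunit and a cyclin of the mitotic kinase, because these genes were high together in the same cells and because 2 short motifs recur in promoters of mitotic genes. The sequences come from RefSeq for GRCm38.p6, run 5′ to 3′ on the gene's strand, and end 15 bases past the annotated start. Capitals mark TTTGAA, the cell-cycle homology element, and CCAAT, the box bound by NF-Y, with their reverse complements TTCAAA and ATTGG.
Mki67, chr7:135716365-135716579, minus strand: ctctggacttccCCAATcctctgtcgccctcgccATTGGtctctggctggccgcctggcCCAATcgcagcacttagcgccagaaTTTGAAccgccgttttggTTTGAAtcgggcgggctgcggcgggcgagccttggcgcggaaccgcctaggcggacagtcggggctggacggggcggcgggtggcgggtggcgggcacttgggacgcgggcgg
Top2a, chr11:99024175-99024389, minus strand: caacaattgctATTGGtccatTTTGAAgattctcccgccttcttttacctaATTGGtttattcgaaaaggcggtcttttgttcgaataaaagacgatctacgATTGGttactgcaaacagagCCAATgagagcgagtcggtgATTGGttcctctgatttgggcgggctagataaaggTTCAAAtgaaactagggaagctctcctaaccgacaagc
Cenpf, chr1:189688072-189688233, minus strand: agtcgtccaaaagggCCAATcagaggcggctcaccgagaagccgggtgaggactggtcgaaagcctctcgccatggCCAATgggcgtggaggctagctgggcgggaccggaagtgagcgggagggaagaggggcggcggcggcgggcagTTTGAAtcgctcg
Cdk1, chr10:69352898-69353007, minus strand: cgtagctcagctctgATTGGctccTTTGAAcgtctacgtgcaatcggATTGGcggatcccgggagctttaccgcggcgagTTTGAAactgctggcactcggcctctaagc
Ccnb2, chr9:70421540-70421736, minus strand: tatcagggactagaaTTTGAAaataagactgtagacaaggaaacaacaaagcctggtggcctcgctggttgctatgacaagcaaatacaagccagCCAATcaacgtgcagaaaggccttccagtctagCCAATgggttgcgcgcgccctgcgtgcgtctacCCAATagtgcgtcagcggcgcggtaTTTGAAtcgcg

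In these stretches Mki67 held 2 matches to the first motif and 3 to the second, Top2a 2 and 5, Cenpf 1 and 2, Cdk1 2 and 2, and Ccnb2 2 and 3. A 90-base stretch of the Birc5 promoter (chr11:117849162-117849251, plus strand) held neither string of letters. Over whole promoter windows of 300 bases (250 before the start and 50 from it on), 18.1% of the 27025 RefSeq promoters held the first motif on either strand, 37.9% the second and 7.12% both. The share of promoters with these letters is given again below for the gene groups that were high in dividing cells. A match is a string of letters in this window and was not tied to binding of any protein.

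The same rule found far more dividing cells before birth. At E15 it held for 860 of 2838 quality cells in replicate 1 (30.3%, interval 28.6 to 32.0%) and for 1020 of 3537 in replicate 2 (28.8%, interval 27.3 to 30.4%), a mean of 29.6% ± 1.04 (SD, n = 2). That mean was 13.9 times the P7 share. After thinning, the shares were 20.3% and 20.1% at E15 against 1.5% at P7, a ratio of 13.5. The E15 values lay close together and the P7 value lay far below both of them, at either depth. With 1 library at P7, age cannot be told apart from library or from the version of the counting software, which differed between the ages. The rule's genes chose the dividing cells at both ages, so their levels there are a description and not a comparison of the ages. In CPM, which are UMIs of a gene per 1000000 UMIs of the summed cells, Mki67 stood at 324 in the dividing cells at P7 and 361 and 323 CPM at E15. Top2a gave 607 CPM against 694 and 620, Cenpf 352 against 482 and 445, and Birc5 466 against 526 and 560.

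Cell types were read from 7 lineage genes and from clusters. Sox10, a transcription factor of glia and other neural crest derivatives, had a UMI in 62 of the 155 dividing cells (40%) against 16.9% of reference cells. Cdh5, the adherens junction cadherin of endothelium, was seen in 37 (23.9% against 12.3%). Rgs5, a G-protein regulator of pericytes, was seen in 23 (14.8% against 9.26%) and the complement gene C1qa of macrophages in 15 (9.68% against 7.13%). Thinning kept the order in each pair, with 27.0% against 10.4% for Sox10, 18.4% against 7.19% for Cdh5, 9.93% against 4.72% for Rgs5 and 5.67% against 3.32% for C1qa. Cells with a UMI of a glial, vascular or macrophage gene thus made up more of the dividing cells than of the reference cells, though the intervals overlapped for C1qa, and for Rgs5 before thinning.

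The other lineage genes went the other way or did not separate the sets. Col1a2, a collagen I chain of mesenchyme, was seen in 113 dividing cells (72.9% against 88.1%, and 58.9% against 83.7% after thinning). Epcam, an adhesion protein of epithelium, was seen in 23 (14.8% against 12.7%, but 7.09% against 9.70% after thinning), so its order turned with depth. Ibsp, a bone matrix protein, was seen in 68 (43.9% against 42.3%, and 20.6% against 22.7% after thinning). Ibsp and Col1a2 UMIs were spread over cells of every type. Ibsp had a UMI in 33.6% of the reference cells of the Schwann-like class and 32.0% of those of the macrophage-like class, which should lack it, with median depths of 6427 and 5916.5 UMIs. Presence of either gene is therefore not read here as a bone or connective tissue identity. Counted at 2 or more UMIs of Cdh5, Sox10, C1qa, Rgs5 and Epcam, 95 dividing cells carried exactly 1 of these genes, 46 none and 14 several. These were 61.3%, 29.7% and 9.03% of the dividing cells, against 22.6%, 71.5% and 5.89% of the reference cells, which were shallower.

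Clusters were built on all quality cells without cell cycle genes, and each was named from 8 markers a class, so a name stands for cells like that type. Mesenchyme- and fibrocyte-like clusters held 32 of the 155 dividing cells (20.6%), Schwann- and satellite-glia-like clusters 30 (19.4%), the endothelial-like cluster 24 (15.5%), central-glia-like clusters 20 (12.9%), the macrophage-like cluster 16 (10.3%), the mural-like cluster 12 (7.74%) and non-sensory-epithelium-like clusters 11 (7.10%). The osteoblast-like cluster held 4 and clusters without a name 2. The hair-cell-like, melanocyte-like, neuron-like and sensory-domain-epithelium-like clusters held 1 each. The class of the nearest reference cells was the same for 153 of the 155. Those neighbours were found in the principal components that the clusters were built on, so this is not a separate check of the classes.

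**Figure D1:**
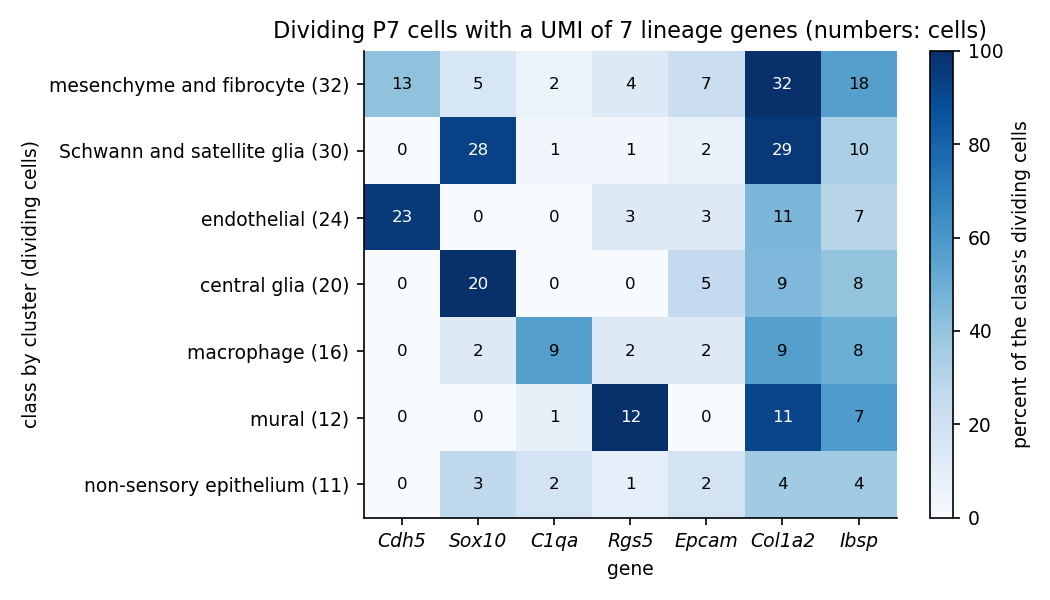
Number of dividing P7 cells with at least 1 UMI of each lineage gene (columns) in the 7 largest marker-named classes (rows, with the number of dividing cells), shaded by the percent of the class's dividing cells. Cdh5, Sox10 and Rgs5 fill 23 of 24 endothelial-like, 28 of 30 Schwann-like and 12 of 12 mural-like cells, whereas Col1a2 and Ibsp appear in every row.

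The lineage genes went with most of these names, but this was partly built in. Cdh5, Sox10, Rgs5 and Col1a2 are among the markers that named the endothelial-like, Schwann-like, mural-like and mesenchyme-like classes. Sox10 is not among the markers of the central-glia-like class. Among dividing cells Cdh5 had a UMI in 23 of 24 endothelial-like cells and in none of the Schwann-like, central-glia-like or mural-like ones. Sox10 was seen in 28 of 30 Schwann-like and 20 of 20 central-glia-like cells. Rgs5 was seen in 12 of 12 mural-like cells. Col1a2 was seen in 32 of 32 mesenchyme-like cells, but Cdh5 was also seen in 13 of those 32 (40.6%, against 11.6% of the reference cells of the class). Epcam was seen in 21.9% of the same dividing cells against 4.11%, and Sox10 in 15.6% against 2.30%. Rgs5 was seen in 12.5% against 7.22% and C1qa in 6.25% against 4.84%. In all, 134 of the 155 cells carried at least 3 of the 8 markers of their own class and no more of a blood cell class. The same markers had named the clusters, so this count describes the cells and is not a separate check of the names.

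Some labels did not hold for the cells in them. In the macrophage-like cluster C1qa was seen in 9 of 16 dividing cells against 80.3% of the reference cells, and 8 of 16 carried at least 5 macrophage markers. Another 4 of the 16 carried at least 5 of 8 B-lineage markers and 1 carried at least 5 T and NK cell markers. In the non-sensory-epithelium-like class all 11 dividing cells lay in a cluster with a median of 3029 UMIs. Only 1 of the 11 carried at least 3 of the class's markers, Epcam was seen in 2, 3 carried at least 5 erythroid markers and 5 had under 1200 UMIs. These 11 cells are therefore not described as epithelium.

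Some dividing cells may hold RNA of 2 cells, and doublet scores were higher among them. Of the 422 cells with the highest scores, taken at an expected doublet rate, 26 were dividing, which is 16.8% of the dividing cells (interval 11.3 to 23.6%) against 5.29% of reference cells. By class these were 12 of 32 mesenchyme-like, 4 of 24 endothelial-like, 4 of 16 macrophage-like, 3 of 11 non-sensory-epithelium-like, 1 of 20 central-glia-like and none of the 30 Schwann-like or 12 mural-like cells. The part of doublets in the class counts was not tested. With those cells left out and the clusters kept, the dividing share of the mesenchyme-like class was 0.517% (20 of 3868) in place of 0.791%, and 8 dividing cells of the non-sensory-epithelium-like class remained. When the remaining cells were also clustered anew, which changed the size of both classes, the counts were 14 of 4324 and 0 of 101.

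Among the 7 classes with the most dividing cells, the dividing share was highest in the central-glia-like and lowest in the mesenchyme-like class. Of 91 central-glia-like cells 20 were dividing (22.0%, interval 14 to 31.9%, and 18.8% after thinning). Shares were 7.57% of 317 endothelial-like cells (4.91 to 11.1%, thinned 5.02%), 7.24% of 221 cells in the macrophage-like cluster (4.19 to 11.5%, thinned 7.5%), 5.85% of 205 mural-like cells (3.06 to 10.0%, thinned 5.08%) and 5.79% of 518 Schwann-like cells (3.94 to 8.16%, thinned 5.0%). The intervals of these 4 classes overlap widely, and each lies above that of the mesenchyme-like class, where 32 of 4045 cells divided (0.791%, 0.542 to 1.11%, thinned 0.471%). That class rests on its name, since some of its clusters have a marker of another class and none of their own among the 10 leading genes, namely Runx2 of osteoblasts, Emcn of endothelium and Matn1 of cartilage. Apart from a cluster of 13 cells with 1 dividing cell, its clusters ran from 0 to 3.49%. The osteoblast-like cluster gave 4 of 422 (0.948%, 0.259 to 2.41%).

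**Figure D2:**
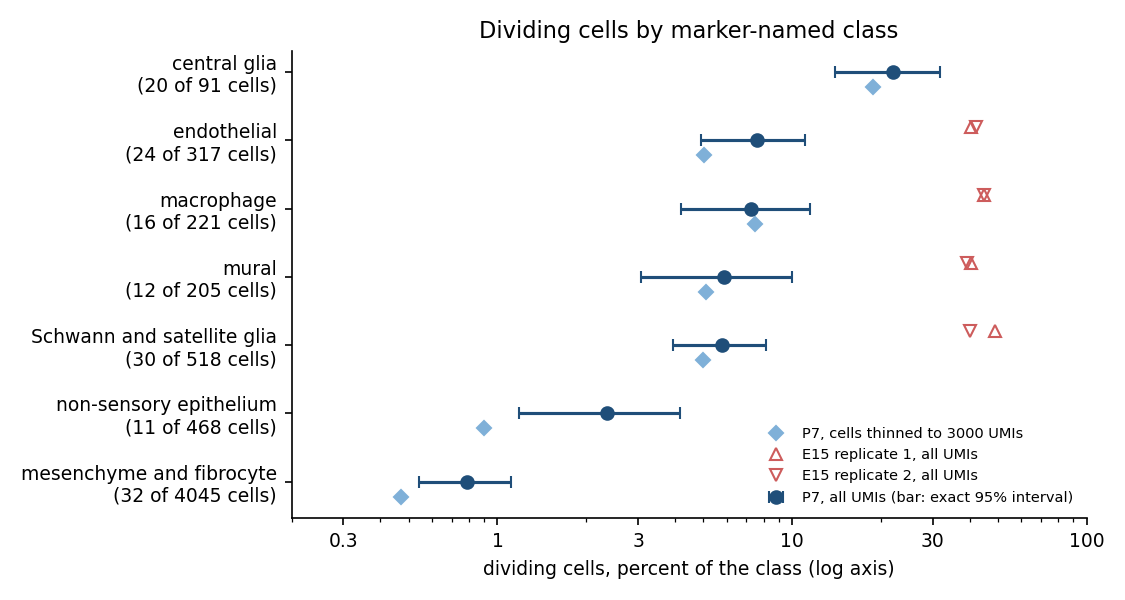
Percent of each marker-named class that met the rule (log axis), at P7 with all UMIs (circles, bars are exact 95% binomial intervals) and with cells thinned to 3000 UMIs (diamonds), and in the 2 E15 libraries for the 4 classes set side by side across ages (open triangles). Central-glia-like cells stand highest at P7 at 22.0%, mesenchyme-like cells lowest at 0.791%, and the E15 triangles lie between 39.1% and 48.8%. The mesenchyme-like class, which held most dividing cells at E15, is not among the 4 classes with triangles.

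Sensory and neural classes held 1 dividing cell each at P7. The rule held for 1 of 287 sensory-domain-epithelium-like cells (0.348%, 0.00882 to 1.93%), 1 of 133 neuron-like cells (0.752%, 0.0190 to 4.12%) and 1 of 26 hair-cell-like cells (3.85%, 0.0973 to 19.6%). The neuron-like share was like the 0.791% of the mesenchyme-like class, and the hair-cell-like share lay above the 2.13% of all quality cells. Single cells in small classes thus do not set these types apart. Of the 26 hair-cell-like cells 11 were reference cells, and the rest, apart from the dividing cell, fell in neither set. The sensory-domain and neuron-like cells were among the 422 with the highest doublet scores. At E15 the neuron-like cells already held few dividing members, 2 of 117 (1.71%) and 5 of 129 (3.88%). Glial, vascular and immune classes of E15 stood far higher. Schwann-like cells divided at 48.8% and 40.2% in the E15 libraries, endothelial-like cells at 40.4% and 42.0%, macrophage-like cells at 44.9% and 44.6% and mural-like cells at 40.6% and 39.1%. After thinning these E15 shares ran from 24.5% to 36.4%. Most dividing cells of E15 were mesenchyme-like, 75.1% of them in replicate 1 and 77.5% in replicate 2, against 20.6% at P7. Among the E15 clusters with this name, those of 139, 249 and 296 cells were led by histone and mitotic genes. They held 139, 245 and 293 dividing cells of both libraries together. How far cycle genes shaped the E15 classes was not tested, so this contrast of makeup between the ages rests on the cluster names. Of the mesenchyme-like cells 32.89% and 30.96% divided in the E15 libraries, against 0.791% at P7. The part of this class in the ratio between the ages was not tested.

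Gene levels of the dividing cells were then set against a reference with the same class makeup, in which the CPM of each class's reference cells were weighted by the class's share of the dividing cells' UMIs. Of 7414 genes with at least 20 CPM on either side, the 4 rule genes left out, 452 (6.1%) were at least 2-fold higher and 289 (3.9%) at least 2-fold lower in dividing cells, with a median log2 fold of -0.06 over all genes. Against all reference cells without matching, 707 of 7324 genes (9.65%) were higher and 468 (6.39%) lower. The rule used this contrast, and cycle genes reached 20 CPM mainly through the dividing cells, so the counts per gene list below are a description. The E15 libraries, whose cells the P7 choice did not use, are given beside them. In E15 replicate 1, 371 of 6996 genes (5.3%) were at least 2-fold higher and 206 (2.94%) lower. In replicate 2, 365 of 7041 (5.18%) were higher and 259 (3.68%) lower. The same rule chose the E15 cells too. Of the 452 genes higher at P7, 433 were measured in both E15 libraries and 278 were at least 2-fold higher in each of them.

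Genes of DNA replication were high throughout. All 37 of the 40 listed genes that reached 20 CPM were at least 2-fold higher, with a median log2 fold of 2.96 (1.72 in each E15 library), and the list summed to 3445 CPM against 442 in the reference. Pclaf, the PCNA-associated factor, stood at 459 CPM (counting interval 435 to 485) against 3.06, a 150-fold difference, with UMIs in 121 of 155 cells. Rrm2, a subunit of the reductase that makes deoxynucleotides, gave 168 against 1.83 CPM, and Tk1, thymidine kinase, 88.4 against 0.973. Pcna, the sliding clamp, which also serves repair in resting cells, was 4.13-fold higher at 167 CPM. Several of these differences were smaller at E15, where the log2 fold of Mcm6, a helicase subunit, was 0.51 and 0.47 against 2.66 at P7.

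Mitotic regulators differed more. Of 28 genes tested in the list of mitotic kinases, cyclins and their regulators, 27 were at least 2-fold higher, with a median log2 fold of 5.53 (4.67 and 4.98 at E15). Ube2c, which charges the anaphase-promoting complex with ubiquitin, stood at 545 CPM (519 to 573) against 2.68. Cdk1 gave 310 against 7.00 CPM, Ccnb2 253 against 0.975 and Cdc20, an activator of the same complex, 216 against 3.52. Ccna2, cyclin A, had 444 UMIs in 107 dividing cells and 32 UMIs in all 6638 reference cells. Plk1, polo-like kinase, had 176 UMIs in 67 dividing cells against 20.

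Kinetochore, spindle and cytokinesis genes gave the largest list median. All 34 tested of 35 were at least 2-fold higher, with a median log2 fold of 6.66 (5.69 and 5.66 at E15) and a sum of 3693 against 73.9 CPM. The spindle protein gene Hmmr had 493 UMIs in 104 dividing cells and 12 in the reference cells. Ska1, of the complex that holds kinetochores to microtubules, had 171 UMIs in 77 dividing cells and 2 in the reference. Knl1, a kinetochore scaffold, had 284 UMIs in 94 cells against 28. The spindle-pole gene Aspm had 196 in 76 against 16, and the motor genes Kif15 and Kif20a 215 in 94 against 21 and 146 in 71 against 15. The remaining genes with the largest folds were Pbk, a mitotic kinase (540 UMIs in 91 cells against 21), Esco2, the cohesin acetyltransferase (234 in 75 against 15), Depdc1a (158 in 73 against 9) and Pimreg (273 in 79 against 16).

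The promoter letters shown above were found at different rates in these groups. TTTGAA on either strand was in 22 of 30 kinetochore-list genes with a RefSeq promoter (73.3%) and 13 of 22 mitotic regulators (59.1%), but in 4 of 29 replication genes (13.8%), against 11.4% of the 5885 tested genes with a promoter. CCAAT was in 63.3%, 81.8% and 62.1% of the 3 groups against 39.0%. Among all genes at least 2-fold higher, 343 had a promoter, of which 30% held TTTGAA, 59.2% CCAAT and 21.0% both, against 4.86% with both among the tested genes. Genes at least 2-fold lower held them at 12.7%, 31.9% and 3.92%. The replication group thus lay near the share of all tested genes for TTTGAA and the mitotic groups far from it, a difference that was not tested.

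Chromosome proteins moved with the cycle genes at smaller folds. In the list of chromosome packing and nuclear lamina genes, 19 of 20 were at least 2-fold higher, with a median log2 fold of 2.76 (1.61 and 1.43 at E15). Hmgb2, a DNA-bending protein, was 19.0-fold higher at 2050 CPM and was seen in 150 of the 155 cells. H2afx, the histone variant marked at DNA breaks, gave 496 against 35.7 CPM, the condensin gene Smc2 292 against 18.7 and Lmnb1, lamin B1, 215 against 16.7. Replication-dependent histones were higher in 10 of 11 tested genes with a median of 4.06 (3.63 and 4.07 at E15). The linker histone Hist1h1b stood at 334 against 2.61 CPM. These histone messages mostly lack a poly(A) tail and the kit captures poly(A) RNA, so only part of them is counted. They summed to 1439 CPM in dividing cells at P7 and to 7157 and 6444 CPM at E15, with 237, 736 and 635 CPM in the matching reference cells.

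DNA repair and microtubule genes followed. In the list of repair genes active in S and G2, 10 of 12 tested were at least 2-fold higher (median log2 fold 2.00, and 1.98 and 1.87 at E15). Ezh2, a histone methyltransferase placed in that list, gave 163 (149 to 178) against 40.2 CPM. Of 15 tubulin and microtubule genes 8 were higher and Dynll2, a dynein light chain, was lower (log2 fold -1.03, with 0.25 and 0.16 at E15, and 0.22 at P7 against reference cells not matched by class). Tubb6 was 6.40-fold, Stmn1, a microtubule destabiliser, 5.60-fold and Tuba1b 3.77-fold higher.

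**Figure D3:**
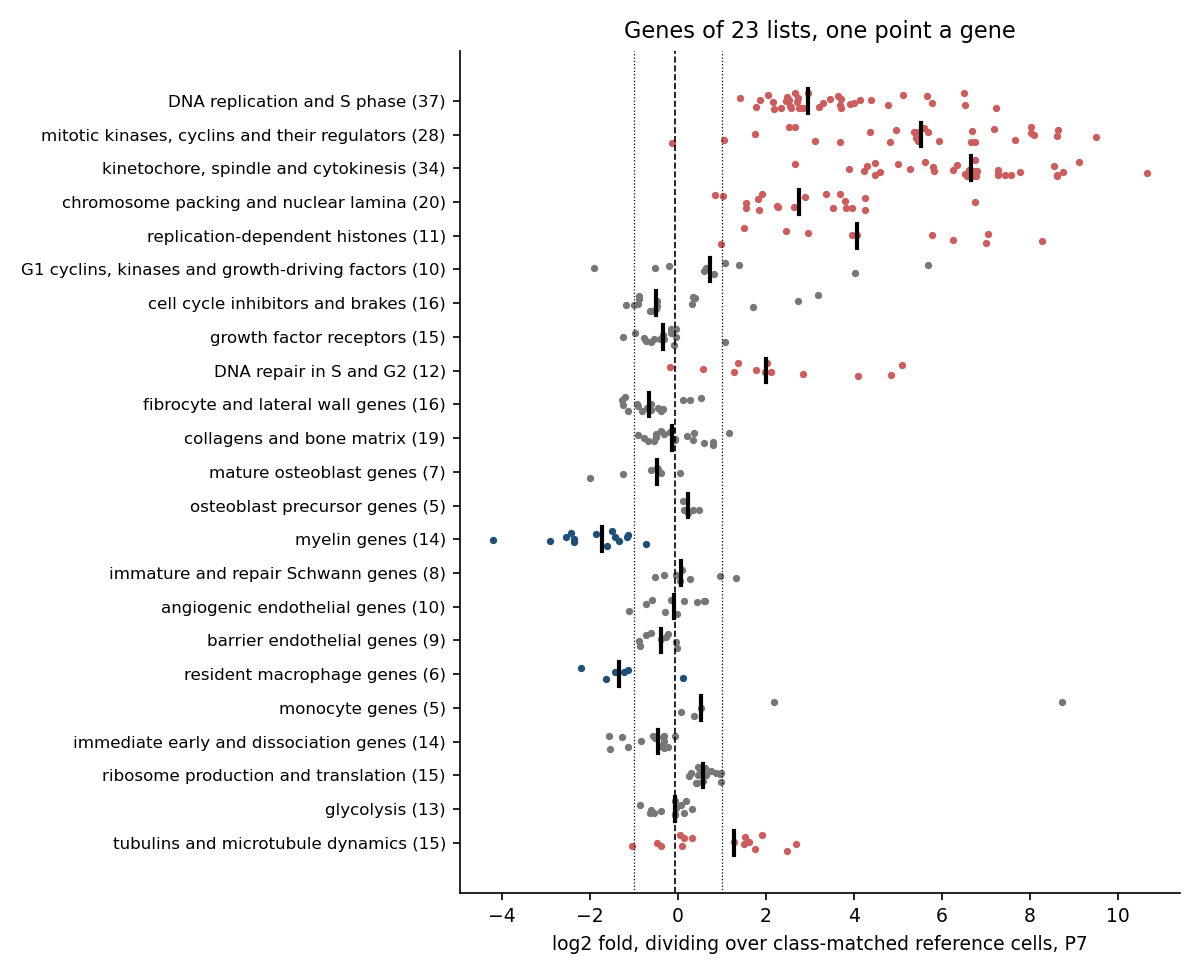
Log2 fold of each tested gene in dividing over class-matched reference P7 cells, 1 point a gene, by gene list with the number tested (vertical jitter only), with black bars at list medians, dotted lines at a 2-fold difference and a dashed line at the median of all tested genes (-0.06). Lists are red where the median is at least 1 and blue where it is at most -1. The kinetochore list has the highest median at 6.66 and myelin genes the lowest at -1.74.

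Genes that start or hold the cycle in G1 differed little by comparison. Of 10 tested G1 cyclin, kinase and growth factor genes, 4 were at least 2-fold higher: the E2F family members E2f8 (27.7 against 0.537 CPM) and E2f2 (28.8 against 1.77), and the kinases Cdk2 (26.0 against 9.90) and Cdk6 (31.9 against 15.3). The log2 fold of Cdk6 was 1.06, and it was 0.03 after thinning, 0.35 with each cell weighted equally, 0.76 against a reference matched by cluster in place of class and 0.53 among dividing cells with their class's markers. Mycl, a Myc family gene, was lower at 5.55 against 20.9 CPM. Cyclin D genes lay within 2-fold, Ccnd1 at 136 against 76.7, Ccnd2 at 94.3 against 134 and Ccnd3 at 124 against 82.6 CPM. The list median was 0.73, against 0.07 and 0.04 at E15.

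Brakes of the cycle went in both directions. Of 16 tested genes 3 were at least 2-fold higher, namely the CDK4/6 inhibitors Cdkn2c (85.7 against 9.43 CPM) and Cdkn2d (138 against 42.7) and the pocket protein gene Rbl1 (28.1 against 4.22). Their log2 folds of 3.18, 1.70 and 2.74 stood beside 4.34, 1.04 and 1.22 in E15 replicate 1 and 3.86, 0.91 and 1.17 in replicate 2. Gadd45g and Btg2, stress and anti-proliferative genes, were lower, at log2 folds of -1.18 and -1.0, which were -0.81 and -0.85 when matched by cluster. The CIP/KIP inhibitors Cdkn1a, Cdkn1b and Cdkn1c had log2 folds of -0.88, -0.62 and -0.49 and lay within 2-fold.

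Growth and energy genes moved less than the cycle itself. None of 15 ribosome production and translation genes passed 2-fold, with a median log2 fold of 0.56 that was close to the 0.55 and 0.51 at E15, and the list summed to 3776 against 2647 CPM. Nucleolin (Ncl) stood at 575 (548 to 603) against 389 CPM. None of 13 glycolysis genes passed 2-fold, with a median of -0.07 at P7 and 0.20 and 0.26 at E15. Of 15 growth factor receptors Pdgfra was higher (109 against 51.9 CPM) and the macrophage receptor Csf1r lower (41.6 against 99.2). The log2 fold of Pdgfra was 1.07, and 0.24 against reference cells not matched by class. In the central-glia-like class alone Pdgfra had 191 UMIs in 19 dividing cells. Within the mesenchyme-, Schwann-, endothelial- and mural-like classes no tested receptor was at least 2-fold higher. Csf1r lost that direction, at a log2 fold of 0.06, when only dividing cells that carried their class's markers were used. Immediate early genes, which respond to tissue dissociation, were lower in 4 of 14 (median -0.44, and -0.70 and -0.92 at E15). Among these, Atf3 gave 126 against 372 CPM, a log2 fold of -1.56 that was -0.91 when matched by cluster.

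UMIs of replication and mitosis genes were then counted in each cell. After thinning to 3000 UMIs, 141 dividing cells had a median of 6 UMIs of the 40 replication genes and 20 UMIs of the 65 genes of the 2 mitotic lists, against 1 and 1 in 6022 reference cells. At least 3 mitosis UMIs were found in 128 of 141 dividing cells (90.8%) and 337 of 6022 reference cells (5.60%). More mitosis than replication UMIs were found in 96 of the 141, more replication UMIs in 40 and equal numbers in 5. Among reference cells 1504 had more mitosis and 2737 more replication UMIs. The 2 lists differ in length, so equal numbers do not mark a phase of the cycle. The rule's own genes are known to peak in G2 and mitosis. Medians of replication and mitosis UMIs were 9 and 36 in 27 Schwann-like cells, 4.5 and 27.5 in 14 cells of the macrophage-like cluster, 9.5 and 20.5 in 20 central-glia-like, 9.5 and 19 in 22 endothelial-like, 5 and 15 in 31 mesenchyme-like and 11 and 14 in 11 mural-like cells. Schwann-like cells had the highest mitosis median and mural-like cells the highest replication median.

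**Figure D4:**
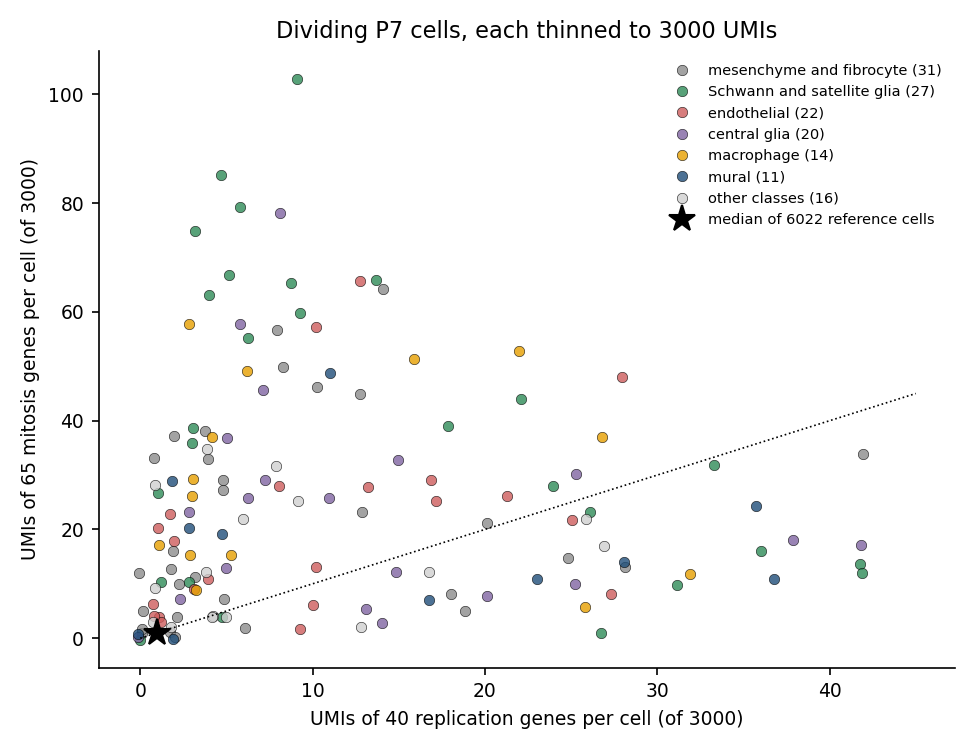
UMIs of 40 replication genes (x axis) and 65 mitosis genes (y axis) in each of 141 dividing P7 cells thinned to 3000 UMIs, coloured by class with a small jitter, a dotted line at equal numbers and a star at the median of 6022 reference cells. 96 cells lie above the line and 40 below it, and every large class has cells on both sides.

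The dividing Schwann-like cells came from 1 of the 2 Schwann-like clusters. All 30 lay in a cluster of 316 cells (9.49%, interval 6.5 to 13.3%) led by Foxd3, L1cam and Ednrb, genes of neural crest and immature or non-myelinating glia. None of the 202 cells of the other cluster, led by myelin genes such as Ncmap, Cldn19 and Prx, met the rule, and a count of 0 there allows a share of up to 1.49% by 3 counts of the total and 1.81% by the exact interval. None of the 30 was among the cells with the highest doublet scores.

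Most myelin genes in these dividing cells lay below those of non-dividing cells of the same cluster, which were themselves far below the myelinating cluster. Mbp, myelin basic protein, stood at 211 CPM (162 to 270) in the 30 dividing cells, 492 (456 to 529) in the cluster's reference cells and 3734 in the reference cells of the myelinating cluster. Prx, periaxin, gave 20.1, 97.9 and 722, and the tight junction gene Cldn19 40.2, 201 and 774. For these genes the 3 counting intervals, which cover the summed UMIs and not the spread between cells, did not overlap. Ncmap had no UMI in the dividing cells, 30 UMIs in the cluster's reference cells and 1914 in the myelinating cluster. Pou3f1, a transcription factor of the promyelinating stage, gave 526, 2009 and 2234 CPM, and Egr2, the driver of the myelin programme, 56.9, 115 and 181. Within the cluster 250 of 2088 genes (12%) were at least 2-fold higher and 94 (4.5%) lower in dividing cells, and of 9 myelin genes tested 7 were lower.

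Of 6 tested immature and repair Schwann genes none passed 2-fold against the cluster's reference cells. Gap43, at 33.5 against 94.5 CPM, and Cdh2, at 46.9 against 23, differed by more but lay below the minimum of 100 CPM used within a class. Sox10 gave 459 CPM (385 to 542) in dividing cells, 546 in the cluster's reference cells and 289 in the myelinating cluster. The neuregulin receptor gene Erbb3 gave 419, 548 and 288 CPM, and the fatty acid binding protein gene Fabp7 2197, 2600 and 75.2. Ncam1, a neural adhesion gene, gave 405, 280 and 65.6, and Sox2, an inhibitor of myelination, 328, 255 and 82.3. The dividing cells had less of the CDK inhibitor Cdkn1c (127 against 562 CPM) and more of Cdkn2c (305 against 47.9) and Cdkn2d (362 against 44.6). Cyclin D1 (Ccnd1) lay at 231 against 340 CPM.

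**Figure D5:**
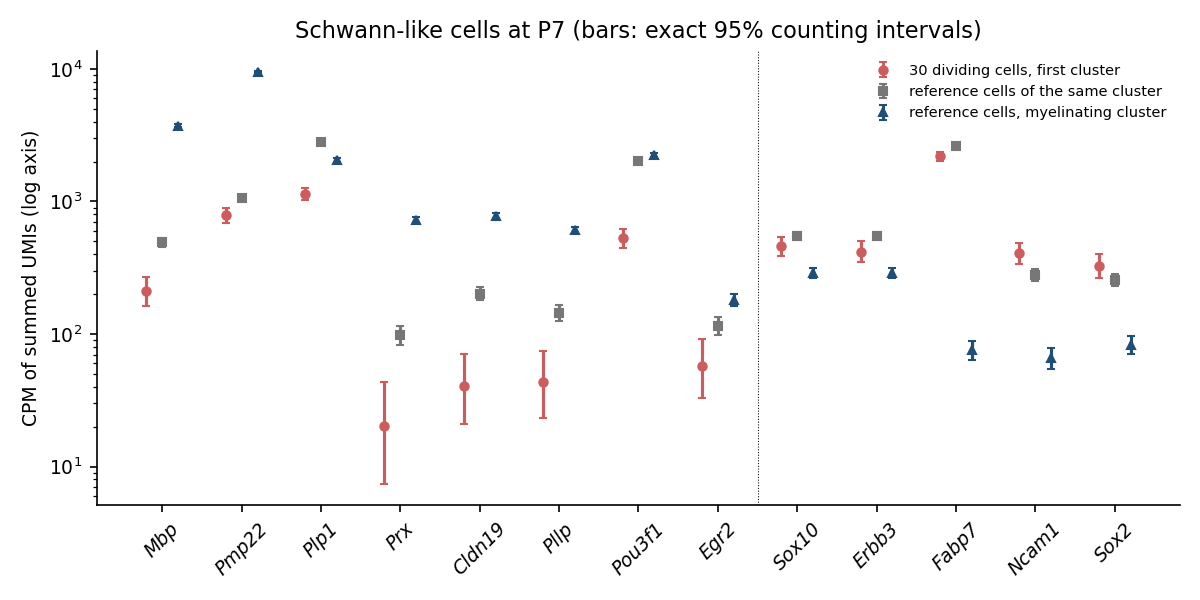
CPM (log axis, bars are exact 95% Poisson intervals of the summed UMIs) of 8 myelin genes (left of the dotted line) and 5 genes of immature or all Schwann cells (right) in 30 dividing Schwann-like P7 cells, the reference cells of their own cluster and those of the myelinating cluster. Mbp steps from 211 to 492 to 3734 CPM, while Sox10 lies at 459, 546 and 289 CPM.

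Central-glia-like cells, the oligodendrocyte and astrocyte types that reach into the base of the auditory nerve, divided mainly in an oligodendrocyte-lineage cluster. Of the 20 cells 19 came from a cluster of 58 (32.8%, interval 21.0 to 46.3%) led by Olig1, Olig2, Gpr17 and Neu4, and 1 from a cluster of 33 (3.03%, 0.0767 to 15.8%) led by Mog, Mobp and Mag, genes of mature myelin. Pdgfra, the receptor that marks oligodendrocyte progenitors, stood at 416 CPM (359 to 479) in dividing cells and 38.5 in the 48 reference cells matched by cluster, a 10.8-fold difference, and was seen in 19 of 20 dividing cells. Cspg4, the NG2 proteoglycan of the same progenitors, gave 131 (99.7 to 168) against 33.3 CPM and was also seen in 19 of 20. Olig1 was seen in 20 of 20 at 1271 against 678 CPM, and Olig2 in 20 of 20 at 662 against 509.

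The astrocyte markers of the class differed among themselves in the dividing central-glia-like cells. Aqp4, the water channel of astrocyte endfeet, had 1 UMI against 877 CPM in the reference cells, and Gfap had 4 UMIs, all in 1 cell, against 149 CPM. The glutamate transporter gene Slc1a3 lay within 2-fold at 78.4 against 139 CPM and was seen in 14 of 20 cells. Apoe, a lipid carrier, gave 124 against 2722 CPM and was seen in 18 of 20. The cyclin genes Ccnd1 (350 against 57.8 CPM) and Ccnd3 (115 against 53.7) were more than 2-fold higher, unlike in Schwann-like cells, a difference between the classes that was not tested. They were the 2 higher ones of 4 G1 genes tested in central-glia-like cells, and 1 of the 4 was at least 2-fold lower. In this class 174 of 2089 genes (8.33%) were at least 2-fold higher and 146 (6.99%) lower. The reference is small at 48 cells and held both oligodendrocyte and astrocyte genes.

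Endothelial genes of the dividing endothelial-like cells mostly lay within 2-fold of the reference. Cdh5 stood at 883 CPM (798 to 975) against 1005 in 268 reference cells, and Kdr, the main VEGF receptor, at 504 (440 to 575) against 564. Cldn5, the tight junction claudin, gave 1768 against 2928 CPM and Flt1, the decoy VEGF receptor, 635 against 1035. Of 1946 genes 128 (6.58%) were at least 2-fold higher and 50 (2.57%) lower. None of 10 angiogenic genes was at least 2-fold higher and 1, the netrin receptor gene Unc5b, was lower (24.8 against 105 CPM). Esm1 and Apln, genes of sprouting tip cells, gave 42.8 against 60.8 and 65.3 against 46.6 CPM, each from 5 cells or fewer. Of 8 blood-brain-barrier genes 1 was lower, the lipid transporter gene Mfsd2a, at 76.6 against 159 CPM.

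Genes of other cell types differed between the endothelial sets as well. Of 8 fibrocyte and lateral wall genes tested 5 were at least 2-fold higher and 1 lower, and of 4 mature osteoblast genes 3 were lower. Otos, the fibrocyte secretory protein, gave 1808 against 259 CPM, from 803 UMIs in 17 of the 24 dividing cells, and the fibrocyte genes Ecrg4 and Car3 gave 507 against 66.4 and 813 against 182, but Coch gave 22.5 against 102. Bglap, osteocalcin of osteoblasts, lay the other way at 18.0 against 717 CPM, and Rgs5 of pericytes at 11.3 against 294. The part of this RNA in the gene differences was not tested.

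In the mural-like dividing cells Rgs5, Abcc9, Kcnj8 and Notch3 lay within 2-fold of the reference, and Acta2 and Myh11 were lower. Rgs5 stood at 9085 CPM (8586 to 9605) against 10134 in 181 reference cells, Abcc9 and Kcnj8, the 2 subunits of the pericyte potassium channel, at 293 against 305 and 565 against 843, and Notch3 at 792 against 584. Acta2, the actin of smooth muscle, was 10.5-fold lower, at 176 (113 to 262) against 1856 CPM, and Myh11, its myosin, had 2 UMIs against 370 UMIs in the reference. Of 2121 genes 197 (9.29%) were at least 2-fold higher and 103 (4.86%) lower. Immediate early genes were lower in 7 of 13, with Fos at 1591 against 3545 CPM. The set is 12 cells, so each value rests on few cells.

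Mesenchyme-like dividing cells were few for the size of the class and were spread unevenly over its clusters. The cluster led by genes such as Gcg and Tnmd held 12 of 498 (2.41%, interval 1.25 to 4.17%), and a small cluster led by Slc47a1 and Penk held 3 of 86 (3.49%, 0.725 to 9.86%). Clusters of 346, 495, 345 and 247 cells, led in turn by Nell2 and Clca2, by Tnc and Notum, by Jaml and Otos and by Rarres1 and Chad, held none. In the one of 495 cells a count of 0 allows a share of up to 0.606% by 3 counts of the total and 0.742% by the exact interval. Because of the leading genes of other classes named above, dividing cells were compared only with reference cells of their own clusters.

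Set against those cells, fibrocyte genes went in both directions. Of 14 fibrocyte and lateral wall genes tested 3 were at least 2-fold lower and 3 higher, with a median log2 fold of -0.57, beside 43 of 1806 genes lower (2.38%) and 125 higher (6.92%). Ecrg4 gave 1068 (996 to 1143) against 4612 CPM, the carbonic anhydrase gene Car3 1579 against 4871, and Gjb2, connexin 26, 141 against 464. Otos gave 6259 against 11959, Otor 4114 against 7149 and Coch, cochlin, 532 against 540, all within 2-fold. Vim, the intermediate filament vimentin, was higher at 803 (741 to 869) against 253 CPM. Genes that led some of the clusters, Gcg and Cxcl12, were lower at 100 against 1030 and 97.6 against 339. The mesenchyme-like set also had 12 of 32 cells among the highest doublet scores, and 5683 UMIs of the haemoglobin gene Hbb-bs in 14 cells (7399 against 88.6 CPM). The part of these in the differences was not tested.

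A few dividing cells carried markers of developing blood cells. At least 5 of 8 B-lineage markers were found in 4 of 155 dividing cells (2.58%, interval 0.708 to 6.48%) and in 5 of 6638 reference cells (0.0753%, 0.0245 to 0.176%). Of the 11 such cells in the whole library, 4 were dividing. Each of the 4 had 31 to 114 UMIs of Vpreb3, a chaperone of the pre-B cell receptor, 9 to 72 of Cd79a and 17 to 38 of Cd79b, the receptor's signalling chains, 58 to 97 of Ebf1, a B-lineage transcription factor, and 0 or 1 of Ms4a1, which mature B cells carry. Ebf1 was not confined to these cells, with UMIs in 88 of the 155 dividing cells and 123 UMIs in the highest of them. At least 5 of 8 erythroid markers were found in 6 dividing cells (3.87%, 1.43 to 8.23%) and 9 reference cells (0.136%, 0.0620 to 0.257%). Hbb-bs reached 20178 UMIs in the dividing cells, 16339 of them in 4 cells. In 1 dividing cell with neutrophil progenitor markers Camp had 1608 UMIs of the 1611 found in all dividing cells.

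Genes lower in dividing cells over all classes were led by differentiation products. Myelin genes had the lowest list median, -1.74 (-0.90 and -0.87 at E15), with 13 of 14 tested genes at least 2-fold lower. Matched by cluster in place of class, where 429 of 7426 genes (5.78%) were higher and 271 (3.65%) lower, 5 myelin genes were lower and the median was -0.86, so the size of the difference depended on whether the reference included the myelinating clusters. It also depended on the class. Against cluster-matched reference cells, 7 of 9 tested myelin genes were lower in Schwann-like cells (median -1.30), where 4.5% of all tested genes were lower. In central-glia-like cells 1 of 8 was lower and 2 were higher (median -0.23), where 6.99% of all tested genes were lower and 8.33% higher. Over all classes Mal, a myelin proteolipid, stood at 87.0 CPM (76.6 to 98.5) against 450, and Mbp at 507 against 1549. Bglap was lower at 337 against 1350 CPM, although 705 of its 972 UMIs came from 1 cell, and Clu, clusterin, at 207 against 711. Emid1, Grb14, Pla2g7, Cnp, Pmp22 and Mia were also among the 12 genes of largest fold, with log2 folds of -1.86, -1.55, -1.52, -1.45, -1.43 and -1.43. Matched by cluster, Pmp22, Emid1, Mbp, Grb14 and Cnp lay within 2-fold at -0.05, -0.55, -0.57, -0.80 and -0.89. Among dividing cells with their class's markers Mia and Clu did so at -0.39 and -0.76. Against reference cells without matching Mbp and Cnp turned, to log2 folds of 0.72 and 1.0. In 16 fibrocyte genes 4 were lower and none higher (median -0.65), but 3 were lower and 2 higher when matched by cluster. Of 6 resident macrophage genes 5 were lower (median -1.33, and -0.96 and -1.83 at E15), in a cluster where 4 of 16 dividing cells carried B-lineage markers. Among dividing cells that carried their class's markers none of the 5 was at least 2-fold lower, with log2 folds from -0.98 to 0.18.

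The remaining lists are given by their counts and medians. Of 19 collagen and bone matrix genes 1 was higher, Postn, periostin, at 59.7 against 26.7 CPM (median -0.13). With the reference matched by cluster none was higher and 3 were lower, and Postn had a log2 fold of 0.54. None of 5 osteoblast precursor genes passed 2-fold (median 0.24), and of 7 mature osteoblast genes 2 were lower (median -0.48). Of 8 immature and repair Schwann genes Gap43, a growth cone protein, was higher at 90.2 against 36.4 CPM (median 0.07), with a log2 fold of 1.31 that was 0.67 against the cluster-matched reference. Angiogenic and barrier endothelial genes had medians of -0.09 and -0.38, with 1 of 10 and none of 9 lower. Of 5 monocyte genes 2 were higher, 1 of them Plac8 from 116 UMIs in 7 cells, whose log2 fold turned to -1.96 among dividing cells that carried their class's markers. Of the 289 genes lower at P7, 274 were measured in both E15 libraries and 55 were lower in each of them.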

How the data were processed

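The deposited files hold UMI counts per gene and cell barcode, made by the authors with Cell Ranger per the file headers (version 3.1.0 for P7 and 6.1.2 for both E15 libraries). The submitters' processing notes name Cell Ranger 6.1.2 and GRCm38. Cells had been called before deposit by a rule not given in the sources used here. The P7 file lists 28692 genes. For genes with shared identifiers the E15 symbols were used, which differed for 1228. From these counts, cells were filtered and chosen as described, and the members and gene lists were chosen with earlier results of these data known.

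Clustering used Python 3.11.15, scanpy 1.11.5, numpy 2.4.6, scipy 1.17.1, scikit-learn 1.9.0 and leidenalg 0.10.2. Counts were scaled to 10000 a cell and logged, and 2000 variable genes without cycle genes, 30 principal components, 15 neighbours and Leiden resolution 1 were used. A class name needed 3 of 8 markers at a 2-fold higher level and in 20% of the cluster's cells. Doublets were scored with Scrublet, whose automatic threshold marked 3 cells, so the highest scores at a rate of 0.8% per 1000 cells were marked instead. These cells were kept, as the rule has it.

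Summed UMIs were compared as CPM, with genes at 20 CPM on either side tested, and at 100 CPM within a class. A level of 0 was set to 3 UMIs in fitted folds. Intervals are exact 95% Poisson or Clopper-Pearson intervals. No test was run, since P7 is 1 library. Named genes were the 12 of largest fold in each direction with at least 50 CPM on the higher side and a UMI in 20% of the cells there, leaving out genes without a proper symbol those of ribosomes, mitochondria and antibodies, and 6 sex-linked genes, up to 8 per list, the rule and lineage genes and the class markers. Genes named within classes, in blood cells and as cluster leaders were chosen after their values were seen. On simulated counts with known folds the comparison was checked. edgeR 4.0.16 was used only for a TMM factor. A few genes that the rule selects are not reported here.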

Additional observations from a re-analysis of the deposited data

Results flagged for a closer look

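At P7, 10 genes differed at least 2-fold in 1 direction between dividing and class-matched reference cells while both E15 libraries differed at least 2-fold in the other. The difference between the ages was not tested. Most of these genes rest on few P7 cells. The bone gene Bglap had a log2 fold of -2.00 at P7 and of 1.46 and 2.67 at E15, where it stood at only 0.466 against 0 CPM (set to 3 UMIs for the fold) and 0.395 against 0.0619. At P7, 705 of its 972 UMIs in dividing P7 cells came from 1 cell of the macrophage-like cluster. The neutrophil granule gene Camp had 6.85 at P7 against -1.58 and -5.52, with 1608 of 1611 UMIs in 1 cell. The antigen-presentation genes H2-Ab1, H2-Aa and H2-Eb1 had 1.69, 1.35 and 1.76 at P7 and negative values in both E15 libraries, from 10, 4 and 6 cells, with 95, 125 and 138 UMIs in the top cell of each. The oligodendrocyte gene Ermn had -3.87 from 11 UMIs in 2 cells, and Dapl1 -1.52 from 25 UMIs in 6 cells, which turned to 1.19 with a reference matched by cluster.

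Cspg5, a neural proteoglycan, had a log2 fold of 2.08 from 464 UMIs in 42 dividing P7 cells, against -1.22 and -1.43 at E15. Foxd1, a transcription factor, had 1.06 from 218 UMIs in 34 cells, against -1.52 and -1.51, and fell to 0.30 with the reference matched by cluster. Ildr2, a membrane protein, had 1.77 from 88 UMIs in 32 cells, against -1.20 and -1.49.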

How the results depend on the processing

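No paired analysis was possible because P7 has 1 library, so the ages share fewer than 2 replicate numbers. The share of dividing P7 cells stayed within its interval under 5 other rules or filters. The ratio of E15 to P7 was 13.5 without replicate 1 of E15 and 14.2 without replicate 2, so no single E15 library decided it.

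Class counts depended on the clustering. With cycle genes kept in, 1 cluster of 98 cells held 68 of the dividing cells and counted as mesenchyme-like. The mesenchyme-like share of dividing cells was then 49.7%, the Schwann-like 7.74%, the macrophage-like 5.81%, the mural-like 1.29% and the non-sensory-epithelium-like 1.29%. The dividing share of these classes became 2.03% for mesenchyme-like, 2.42% for Schwann-like, 1.03% for mural-like and 0.448% for non-sensory-epithelium-like cells. At a resolution of 2 the macrophage-like share of dividing cells was 5.81%. At resolutions of 0.5 and 2 the non-sensory-epithelium-like share was 0.645% each time, and 0.448% and 0.292% of that class divided. With the highest doublet scores removed, 0.517% of the mesenchyme-like class divided in the clusters as they were, a setting added after seeing the data. With the remaining cells also clustered anew the shares of dividing cells were 10.9% mesenchyme-like, 5.43% macrophage-like and 0% non-sensory-epithelium-like, and 0.324% and 0% of the mesenchyme-like and non-sensory-epithelium-like classes divided. Thinning gave 0.471% and 0.898% for these classes.

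Counts of genes at least 2-fold higher and lower, 452 and 289 as reported, became 253 and 130 with a minimum of 50 CPM, 3757 and 1437 with none, and 707 and 468 against all reference cells without matching. Lower genes numbered 483 with each cell weighted equally, 686 after thinning and 466 without the mesenchyme-like class. With a reference matched by cluster, a setting added after seeing the data, the counts were 429 and 271, of which 408 and 177 were among those reported. With TMM scaling, which moved all genes by 0.058 on the log2 scale, they were 482 and 248.

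Of the named genes, 4 turned direction against the unmatched reference or with fewer cells, besides Plac8 (-0.65 without the highest doublet scores and -1.96 among cells with their class's markers). Unmatched, Cnp gave 1.00, Csf1r 1.14, Mbp 0.72 and Dynll2 0.22, and Csf1r gave 0.055 among marker-carrying cells. Over 202 listed or named genes past 2-fold, 41 fell below it or turned in some setting and 15 turned. With 155 cells, class values rest on 11 to 32 cells, and intervals do not cover the spread between animals.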
